A study of Sus scrofa with 189 samples.

Results

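The 8 genes described here belong to the muscle programme that burns fat in place of glucose. PPARA, PPARD and PPARGC1A encode its regulators, and PDK4, UCP3, ANGPTL4, CPT1B and MLYCD are textbook targets of those regulators. They were taken by name from 12651 genes in the deposited table, whatever their level. MLYCD carries no symbol there and was matched by its identifier. All 8 reached a mean of 0.5 FPKM over the libraries, the minimum for testing, which 10717 genes reached. FPKM are fragments scaled to transcript length and library size, so levels can be set side by side between genes.

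The study sequenced poly(A) RNA from longissimus dorsi, the loin muscle, of 189 first-generation pigs of Duroc boars and Luchuan sows, 1 library per pig. Per the labels' protocols the pigs shared a farm and diets, were slaughtered at 210 ± 6 days of age, and muscle was taken 25 minutes after death. The growth protocol names 8 boars, 112 sows and 265 offspring, while the series text names 158 sows. A label of intramuscular fat (IMF) content, with no unit, is given for 164 pigs. Of these, 143 libraries carry no mark (IMF 3.34 ± 0.850, SD), 11 are marked re-analyzed at low IMF (1.69 ± 0.433) and 10 are marked re-analyzed at high IMF (6.03 ± 0.636). Another 25 unmarked libraries have no IMF. The meaning of the mark is not stated, no treatment was applied, and no label gives the time since the last feed or the sex of a pig.

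PPARs are nuclear receptors that fatty acids switch on. They bind DNA with a retinoid X receptor and, helped by the coactivator encoded by PPARGC1A, raise the transcription of genes for fatty acid uptake and oxidation. In skeletal muscle this programme is known to rise during fasting and exercise, and PDK4 is its best known transcript.

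Summed FPKM per library ran from 364109 to 465105, and the deposited values hold no read counts. Fast-fibre muscle genes, 11 of the 12 sought, summed to a median of 55436 FPKM and slow-fibre genes, 9 of 10, to a median of 4512 FPKM, so the libraries carry the markers of skeletal muscle. The listed liver markers, 3 of 5, summed to a median of 7.12 FPKM. Library 39 of the unmarked set stood apart, with a median correlation of 0.889 with the other libraries (0.892 to 0.957 elsewhere) and 3588 FPKM of summed adipocyte markers, where no other library exceeded 543 FPKM. In muscle taken whole, fewer cells of a type and less RNA per cell cannot be told apart.

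Each gene is given by its place in Sscrofa11.1, the pig genome build of the table. PPARA lies on chromosome 5, minus strand, 3302755 to 3321091. PPARD lies on chromosome 7, plus strand, 31222487 to 31297939, and PPARGC1A on chromosome 8, minus strand, 17841844 to 17947161. PDK4 (75246952 to 75260137) and UCP3 (8379085 to 8386377) are both on the minus strand of chromosome 9. ANGPTL4 lies on chromosome 2, minus strand, 70905765 to 70913026, CPT1B on chromosome 5, plus strand, 154899 to 165121, and MLYCD on chromosome 6, minus strand, 4681789 to 4698701. Values are sums over the listed transcripts of a gene, 3 for PPARD, 2 for CPT1B and 1 for each of the others. The largest PPARD transcript by level held 63.5% ± 18.5 (SD, n = 189) of the gene's FPKM and that of CPT1B 91.4% ± 4.98. The first 1419 bases of CPT1B overlap the last part of CHKB on the same strand, so that reads from there could count for either gene. In the RefSeq table of the same build, which gives no strand, PDK4 overlaps ASB4 and LOC106504960, and PPARGC1A overlaps LOC110261971. Whether reads of these genes reached the values of PDK4 and PPARGC1A was not tested.

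The 3 regulators were low. PPARD, the receptor most abundant in skeletal muscle, ranged from 2.30 to 14.9 FPKM over the 189 libraries with a median of 5.25. PPARA, the receptor best known from liver and heart, ranged from 0.147 to 6.17 FPKM with a median of 2.85. PPARGC1A, the coactivator that also drives mitochondrial biogenesis, ranged from 0.317 to 9.08 FPKM with a median of 1.39. The order PPARD, PPARA, PPARGC1A was usual but not fixed, since PPARD exceeded PPARA in 175 of 189 libraries and PPARA exceeded PPARGC1A in 165.

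The 5 targets were higher than the regulators by their medians. PDK4 encodes a kinase that shuts down the pyruvate dehydrogenase complex and so keeps glucose carbon out of mitochondria. It ranged from 0.216 to 377 FPKM with a median of 22.4, a span of 1745-fold. Levels below 1 FPKM were found in 8 libraries and levels above 100 FPKM in 28, so that PDK4 went from near the floor to among the abundant transcripts in pigs of 1 cross, age and abattoir.

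UCP3, a mitochondrial carrier of muscle that rises with fatty acid supply, ranged from 2.44 to 119 FPKM with a median of 22.3. CPT1B, which moves long-chain fatty acids into mitochondria and is the controlled step of their oxidation, had a median of 16.4 FPKM (4.94 to 48.1). MLYCD breaks down malonyl-CoA, the inhibitor of CPT1B, and had a median of 9.33 FPKM (0.848 to 27.2). ANGPTL4, a secreted inhibitor of lipoprotein lipase, had a median of 9.12 FPKM (1.73 to 53.2), and its highest value came from library 39, the next highest being 36.7 FPKM. PDK4 exceeded UCP3 in 89 of 189 libraries and MLYCD exceeded ANGPTL4 in 93, so neither pair has a fixed order, while CPT1B exceeded MLYCD in 157.

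**Figure D1:**
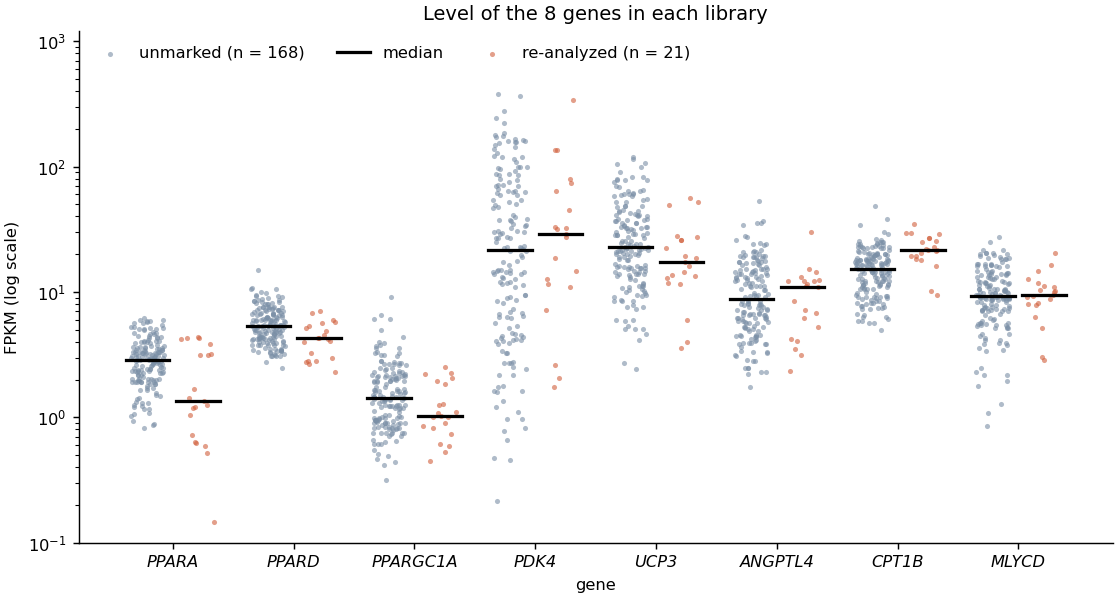
FPKM of each gene (log scale) in every library, with 168 unmarked and 21 re-analyzed libraries as separate points and black lines at their medians. PDK4 spans from 0.216 to 377 FPKM, while PPARD stays between 2.30 and 14.9 FPKM.

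On the log2(FPKM + 1) scale the SD between pigs was 2.01 for PDK4, the 5th largest among the 10717 genes tested, against a median of 0.37 over all of them. UCP3 followed with an SD of 1.07, ANGPTL4 with 0.87 and MLYCD with 0.72, which put them at the 98.9th, 96.9th and 92.7th percentiles. CPT1B (0.58) was at the 83.8th percentile, close to PPARA (0.51, 76th) and PPARGC1A (0.51, 75.2nd), and PPARD (0.41) at the 58.3rd. Low genes vary less on this scale because of the added 1. On the FPKM scale PPARGC1A (28.6-fold from lowest to highest) spanned about as much as MLYCD (32.1-fold) and ANGPTL4 (30.7-fold). PPARA spanned 41.9-fold over all libraries but 7.58-fold in the 168 unmarked ones. Its lowest value, 0.147 FPKM, came from re-analyzed library 151.

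None of the 8 genes passed the test for a change with IMF. The slope was fitted with limma over the 164 pigs with the mark as a covariate, and 0 of 8 genes passed a Benjamini-Hochberg adjusted p of 0.05, against 9 of all genes tested (0.084%, or 28 genes without library 39). In the 41 pigs of lowest IMF (0.77 to 2.61) PDK4 had a median of 25.0 FPKM (0.659 to 364), and in the 41 of highest IMF (3.97 to 6.84) a median of 27.0 FPKM (1.20 to 338). The ranges overlapped along nearly their whole length. PDK4 had a slope of 0.18 ± 0.14 (SE) log2 units per unit of IMF, with a 95% confidence interval from -0.10 to 0.45 (p = 0.202 before and 0.961 after adjustment).

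UCP3 had medians of 16.4 FPKM in the 41 pigs of lowest and 19.3 FPKM in the 41 of highest IMF and a slope of 0.11 (95% interval -0.04 to 0.25). MLYCD had a slope of 0.08 (-0.02 to 0.18) and ANGPTL4 of 0.04 (-0.08 to 0.16). CPT1B had a slope of 0.0057 (-0.07 to 0.08), PPARGC1A 0.02 (-0.05 to 0.09), PPARD -0.01 (-0.07 to 0.04) and PPARA -0.00078 (-0.07 to 0.07). The intervals of PPARA, PPARD, PPARGC1A and CPT1B lie within 0.1 log2 units on both sides of 0, while that of PDK4 allows a rise of 0.45. The 8 adjusted p-values ran from 0.961 to 0.998, and 0 of 8 genes had an unadjusted p under 0.05, against 527 of 10717.

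**Figure D2:**
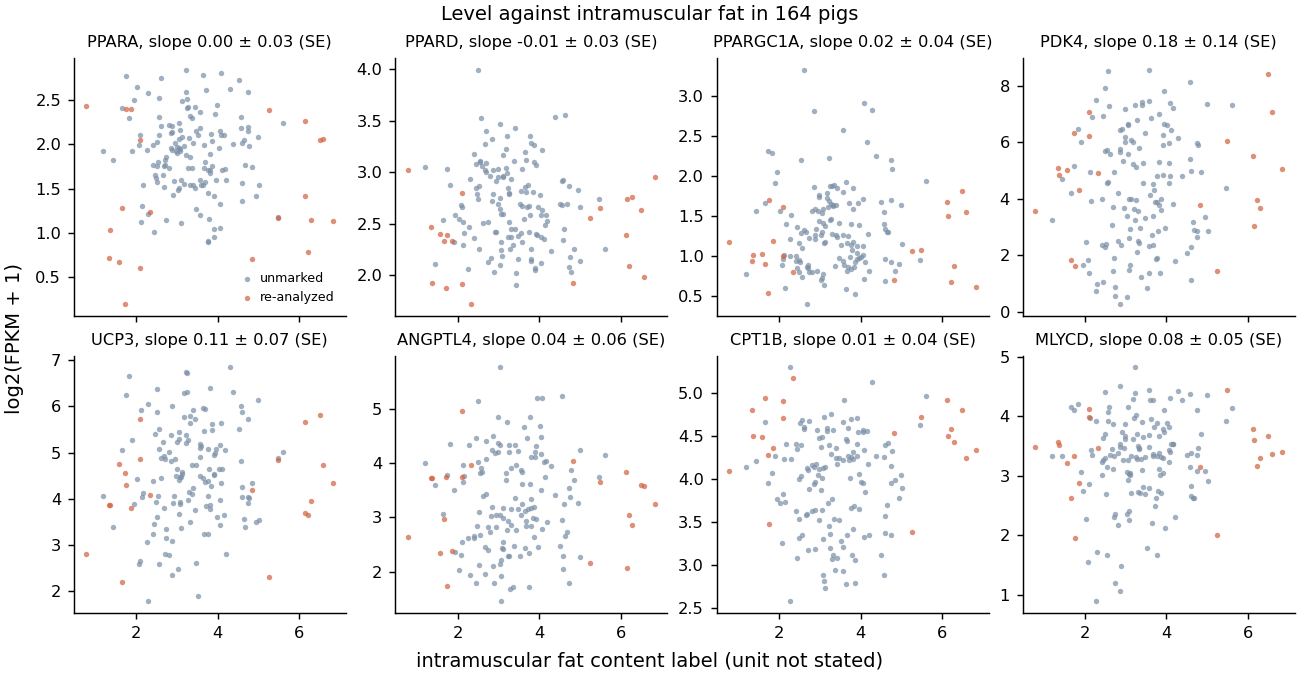
Level on the log2(FPKM + 1) scale (vertical) of each gene against the IMF label (horizontal) in 143 unmarked and 21 re-analyzed pigs, with the fitted slope and its SE above each panel. The points show no trend that passed the test, and the spread of PDK4 is as wide at low as at high IMF.

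No member passed within either set. In the 143 unmarked libraries alone the slope of PDK4 was 0.24 ± 0.20 (SE), and 0 genes of the whole table passed (270 with an unadjusted p under 0.05). In the 21 re-analyzed libraries it was 0.12 ± 0.16. The difference of slopes between the sets, tested as an interaction, passed in 0 of 8 genes and 0% of all genes (176 with an unadjusted p under 0.05, limma). PPARD had the smallest p of the 8 there, with a difference of 0.10 ± 0.06 (p = 0.0697 before and 1.00 after adjustment).

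High and low IMF were also compared within the re-analyzed set, whose pigs lie at the ends of the range. PDK4 had a median of 23.4 FPKM (1.74 to 338) in the 10 pigs of high IMF and 29.2 FPKM (2.04 to 135) in the 11 of low IMF, and the ranges overlapped. The difference was 0.18 log2 units, with a 95% interval from -1.35 to 1.71. In these groups 0 of 8 genes passed (limma), against 0.084% of all genes (9, with 475 at an unadjusted p under 0.05). The direction of the PDK4 difference turned without low-IMF library 20 (-0.10) or 118 (-0.13) and without high-IMF library 141 (-0.08) or 148 (-0.22), the last of which holds the 338 FPKM.

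The adipocyte markers rose with IMF in the same fit. Of 12 tested, 5 passed, namely LEP (0.15, adjusted p = 0.00358), ADIPOQ (0.29, adjusted p = 0.00507), TUSC5 (0.27, adjusted p = 0.00507), PLIN1 (0.26, adjusted p = 0.00595) and CEBPA (0.21, adjusted p = 0.0332), and the median slope of the list was 0.17 against 0.01 over all genes. With the adipocyte score as a covariate the slope of PDK4 was 0.10 ± 0.15 and that of ANGPTL4 -0.04 ± 0.06. A list of PPAR-responsive genes, named here after fatty acid oxidation, also holds genes of lipid uptake and droplets, such as LPL, FABP3, PLIN2 and PLIN5. Slopes were positive in 23 of its 23 tested genes, where 74.6% of all genes had such slopes, but 0 passed and its median was 0.05. Those are values as deposited, and at a common median the median slope over all genes was -0.00082. The smallest p in the list was that of LPL, the lipase that ANGPTL4 inhibits (0.15, adjusted p = 0.153). PEX11A (0.09, adjusted p = 0.424), CPT2 (0.07, adjusted p = 0.821) and UCP2 (0.06, adjusted p = 0.929) followed. Of the 13 genes of the pyruvate dehydrogenase complex and its regulators, the enzyme that PDK4 inhibits, 0 passed, and of 20 PPAR partners and coregulators 0 passed.

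The re-analyzed mark went with 3 of the 8 genes, against 41.1% of all genes tested. At the same IMF, PPARA was lower in re-analyzed libraries, with a difference of -0.46 ± 0.11 (SE) log2 units (adjusted p = 5.75e-04, limma), and so was PPARD, with -0.31 ± 0.09 (adjusted p = 0.00558). CPT1B was higher, by 0.53 ± 0.13 (adjusted p = 5.41e-04). PPARA had a median of 1.36 FPKM in the 21 re-analyzed libraries (0.147 to 4.40) and 2.88 in the 168 unmarked ones (0.815 to 6.17), CPT1B 21.6 (9.40 to 34.9) and 15.2 (4.94 to 48.1), and all these ranges overlap. A share of 3 in 8 is near the background, and the meaning of the mark is not stated.

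PDK4 (0.29 ± 0.47), UCP3 (-0.41 ± 0.25), ANGPTL4 (-0.09 ± 0.21), MLYCD (0.02 ± 0.17) and PPARGC1A (-0.24 ± 0.12, adjusted p = 0.0869) did not pass for the mark. With only the highest PPARD transcript, the difference of PPARD was -0.35 and did not pass (adjusted p = 0.0511). Markers of some other cells moved with the mark too. Lower levels passed in 10 of 12 adipocyte, 9 of 10 collagen and fibroblast and 6 of 7 macrophage markers, where 2436 of 10717 genes were lower. Lower levels also passed in 4 of 8 endothelial, 2 of 2 red blood cell and 1 of 2 liver markers. Of the fast-fibre markers 2 of 11 were lower and 2 higher, and 1 of 9 slow-fibre and 0 of 8 immediate early markers were lower. Summed adipocyte markers had a median of 155 FPKM (62.5 to 380) in re-analyzed and 231 FPKM (83.2 to 3588) in unmarked libraries, and summed collagen and fibroblast markers had a median of 828 FPKM (353 to 1618) in re-analyzed and 1244 FPKM (338 to 3622) in unmarked libraries. Their part in the differences of PPARA, PPARD and CPT1B was not tested. With each library shifted to a common median, re-analyzed libraries had 2551 genes higher and 2145 lower, against 1964 higher and 2436 lower as deposited, and the same 3 of the 8 genes passed in the same directions.

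ANGPTL4, MLYCD, UCP3, CPT1B and PPARGC1A rose with PDK4 from pig to pig. PDK4 was taken as the reference because it was the most variable of the 8, and each other gene's log2 level was regressed on it over the 189 libraries with the mark as a covariate. ANGPTL4 rose by 0.67 ± 0.04 (SE) log2 units per SD of PDK4, the second smallest p of 10716 genes, and MLYCD by 0.48 ± 0.04, the 5th smallest. UCP3 rose by 0.58 ± 0.06, the 19th, CPT1B by 0.25 ± 0.04, the 145th, and PPARGC1A by 0.18 ± 0.03, the 770th.

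The receptors themselves did not pass. PPARA had a slope of 0.06 ± 0.04 (adjusted p = 0.188) and PPARD of 0.0070 ± 0.03 (adjusted p = 0.859), and both slopes were below 0 when libraries were shifted to a common median (-0.0098 and -0.04). PPARA passed with the first 6 digits of the title codes as a factor (0.10, adjusted p = 0.0459). So 5 of 7 genes passed, all rising, where 49.5% of all genes passed, 43.3% rising and 6.23% falling. A share of 5 in 7 is above these, but over so few genes it is not a result about the set, and the ranks of the single genes say more. With libraries shifted to a common median, 1677 genes rose and 2525 fell with PDK4, against 4639 and 668 as deposited, while the 5 genes still passed with slopes of 0.62 (ANGPTL4), 0.54 (UCP3), 0.44 (MLYCD), 0.19 (CPT1B) and 0.12 (PPARGC1A). Without library 39 the slope of ANGPTL4 was 0.66.

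**Figure D3:**
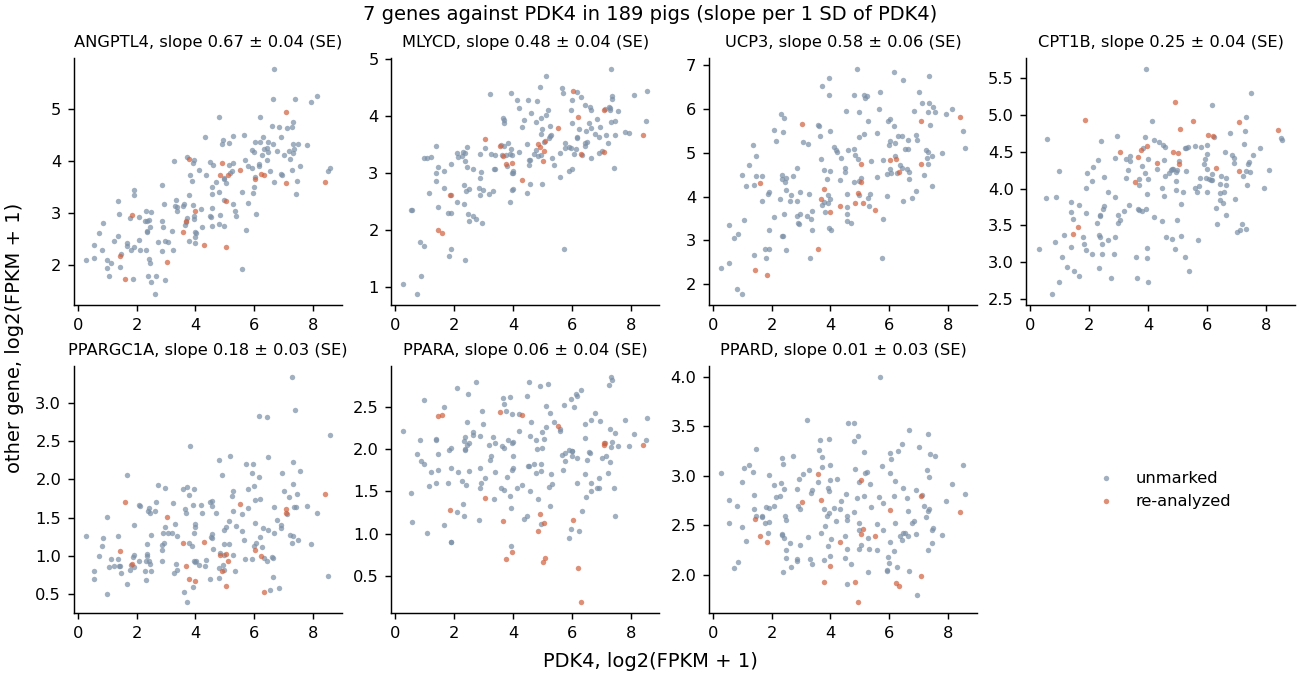
Level of 7 genes (vertical) against PDK4 (horizontal), both as log2(FPKM + 1), in 189 libraries, with the slope per SD of PDK4 and its SE above each panel. ANGPTL4 rises with PDK4 (slope 0.67), but not up to the very top. Libraries 148, 3 and 114, the highest for PDK4, ranked 110th, 127th and 132nd of 189 from the bottom for ANGPTL4. Library 37, the next below them for PDK4, ranked 188th. PPARA (0.06) and PPARD (0.01) form flat clouds.

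At the ends of PDK4 the other targets went with it in some single libraries and not in others. The lowest, unmarked library 67, had 0.216 FPKM of PDK4. Its UCP3 (4.14 FPKM), ANGPTL4 (3.29 FPKM) and MLYCD (1.08 FPKM) ranked 5th, 16th and 2nd from the bottom of 189. Its PPARA (3.63 FPKM) and PPARD (7.13 FPKM) ranked 143rd and 152nd, in the upper part of their ranges. Library 163 had 0.475 FPKM of PDK4 but 24.6 FPKM of CPT1B, which ranked 170th. Library 29 had 0.659 FPKM of PDK4 and the lowest CPT1B (4.94 FPKM) and MLYCD (0.848 FPKM) of all, with UCP3 ranked 15th and ANGPTL4 43rd. At the other end, unmarked library 114 had the highest PDK4, 377 FPKM, and ranked 184th for MLYCD (20.6 FPKM) and 185th for PPARGC1A (4.98 FPKM) but 132nd for UCP3 (33.3 FPKM) and 132nd for ANGPTL4 (13.5 FPKM). Unmarked library 3 had 364 FPKM of PDK4 with PPARGC1A at 0.659 FPKM, the 17th lowest. Unmarked library 37 had 277 FPKM of PDK4 and ranked 188th for ANGPTL4, 179th for MLYCD, 172nd for UCP3 and 120th for CPT1B. IMF was 2.87 in library 67 and 3.56 in library 114.

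Over all 28 pairs of the 8 genes, 17 correlations passed after adjustment for the 28, with a permutation test of 100000 resamples (2-sided) on log2 levels with the set means removed. The share that passes among pairs of any genes was not computed, so nothing is read from this count. Over all genes the median r ran from 0.00818 (with UCP3) to 0.143 (with CPT1B), and 49.5% of genes passed in the fit on PDK4. The strongest of the 28 was PDK4 with ANGPTL4, with a Pearson's r of 0.766 and a Spearman's rho of 0.776 (n = 189, p = 1e-05, which is the lowest p that this number of permutations can reach, and adjusted p = 2.55e-05). It was 0.773 in the 168 unmarked and 0.703 in the 21 re-analyzed libraries, and 0.767 without the 2 libraries farthest from the median of PDK4. This is the same relation as the slope above, on another scale. Levels of 1 library share its composition, and with libraries shifted to a common median this r was 0.728.

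UCP3 and MLYCD formed the next pair, with r = 0.736 and rho = 0.719 (0.751 in unmarked, 0.568 in re-analyzed libraries, 0.719 without the 2 farthest). MLYCD went with PDK4 at r = 0.670 and rho = 0.683 (0.663 and 0.753 in the sets), and with ANGPTL4 at r = 0.659 and rho = 0.711 (0.658 and 0.678). PDK4 went with UCP3 at r = 0.546 and rho = 0.534 (0.534 and 0.677). Each of these had the smallest permutation p, 1e-05, and an adjusted p of 2.55e-05. So PDK4, UCP3, ANGPTL4 and MLYCD were joined by 6 positive correlations, of which the weakest was UCP3 with ANGPTL4 at r = 0.449 and rho = 0.445 (0.462 and 0.320 in the sets, 0.430 without the 2 farthest).

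CPT1B stood apart from UCP3. It went with PDK4 (r = 0.450, rho = 0.432), MLYCD (r = 0.404, rho = 0.388) and ANGPTL4 (r = 0.380, rho = 0.379), each with an adjusted p of 2.55e-05 by permutation. By r with CPT1B these ranked only 1178th, 1799th and 2111th of 10716 genes, and 6.3% of genes exceeded 0.5. In turn CPT1B ranked 134th for PDK4, 81st for MLYCD and 101st for ANGPTL4. The r of CPT1B with UCP3 was 0.0870 (rho = 0.0547, p = 0.236 by permutation, adjusted p = 0.275). With PPARA its r was below 0, at -0.174 (rho = -0.171, p = 0.0170 by permutation, adjusted p = 0.0280), with -0.151 in unmarked and -0.371 in re-analyzed libraries and -0.372 with libraries shifted to a common median.

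Among the regulators, PPARA and PPARGC1A went together at r = 0.599 and rho = 0.622 (adjusted p = 2.55e-05 by permutation, 0.601 in unmarked and 0.734 in re-analyzed libraries). PPARGC1A went with PDK4 at r = 0.365, UCP3 at r = 0.317 and MLYCD at r = 0.221 (adjusted p = 0.00402 by permutation). By r with PPARGC1A these ranked only 1657th, 2424th and 3851st of 10716 genes. Its r with ANGPTL4 was 0.124 (adjusted p = 0.131 by permutation). PPARD went with UCP3 (r = 0.275, adjusted p = 3.45e-04 by permutation) and MLYCD (r = 0.217, adjusted p = 0.00498), which ranked 1240th and 1976th for it. The r of PPARD with PDK4 was 0.0176 (adjusted p = 0.810). In turn PPARGC1A ranked 723rd for PDK4, 830th for UCP3 and 973rd for MLYCD, and PPARD 1085th for UCP3 and 1019th for MLYCD. PPARA had an r of 0.114 with PDK4, 0.118 with UCP3, -0.0522 with ANGPTL4 and 0.0414 with MLYCD, none of which passed. Of the 10 pairs of a receptor and a target 3 passed, 1 of them with an r below 0, against 9 of the 10 pairs of targets. The share among pairs of any genes was not computed. PPARA and PPARD are also low, with medians of 2.85 and 5.25 FPKM, and read depth is unknown. Whether counting noise lowers their r was not tested, so nothing is read from the contrast of these counts.

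**Figure D4:**
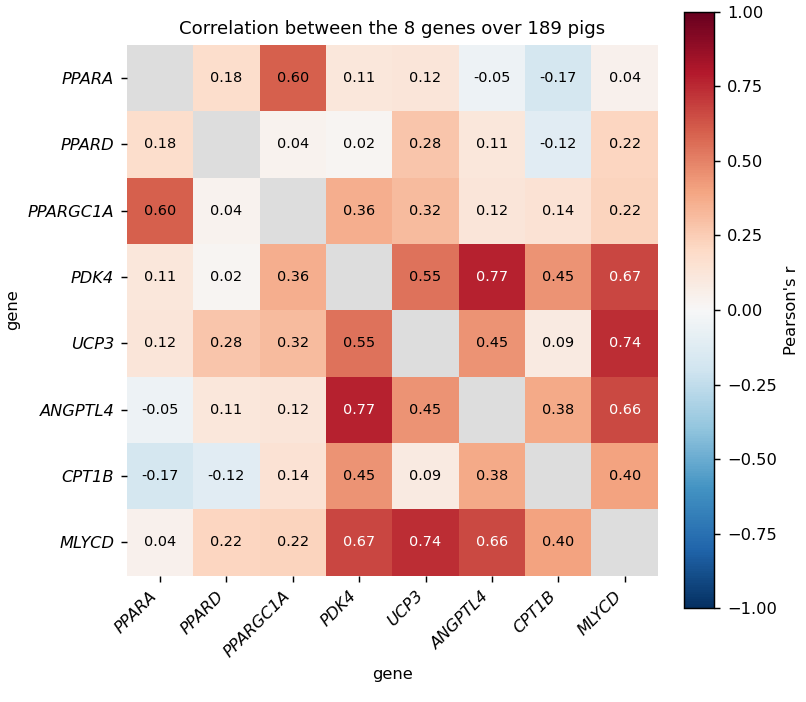
Pearson's r between the 8 genes (rows and columns) over 189 libraries, on log2(FPKM + 1) with the mean of each set removed, coloured from -1 to 1. The block of PDK4, UCP3, ANGPTL4 and MLYCD runs from 0.449 to 0.766, and the row of PPARA exceeds 0.2 only for PPARGC1A (0.60).

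The genes most like each member over the 189 libraries were found by Pearson's r among all tested genes with a symbol. For PDK4 they were PLIN2, which coats lipid droplets (r = 0.783), ANGPTL4, KLF11, a transcription factor (0.732), TXNIP, an inhibitor of thioredoxin and glucose uptake (0.704), and MLYCD. The list of ANGPTL4 was PDK4, PLIN2 (0.734), TXNIP (0.691), KLF11 (0.683) and SLC25A34 (0.674), and that of MLYCD was KLF11 (0.748), UCP3, PLIN2 (0.720), PDK4 and ANGPTL4. PLIN2 and KLF11 were thus among the 5 of PDK4, ANGPTL4 and MLYCD alike. Over all genes the median r with PDK4 was 0.129, and 0.383% of genes exceeded 0.5.

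UCP3 was closest to a gene named U6 (ENSSSCG00000018519, r = 0.863). That gene spans 107 bases on the same strand of chromosome 9, from 8377033 to 8377139, and lies 1946 bases past the 3′ end of the listed UCP3 transcript. Whether both values draw on the same reads was not tested, so this r may not be one between separate transcripts. HMOX2, a heme oxygenase (r = 0.754), MLYCD, TMEM140 (0.720) and PLEKHF1 (0.719) followed. CPT1B was closest to its overlapping neighbour CHKB, a choline kinase (r = 0.728), then NARFL (0.727), ADCK5 (0.709), PPP6R2 (0.70) and HSF4, a heat shock factor (0.698), none of which was among the 5 of another member.

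The regulators had other companions. PPARA was closest to LARP1, an RNA-binding protein that holds back translation (r = 0.730), ELMSAN1 (0.724), GLG1 (0.711), ANKHD1 (0.709) and MCM3AP (0.70). PPARGC1A was closest to SLC20A1, a phosphate transporter (0.695), FILIP1 (0.661), VCPIP1 (0.653), MFSD4B (0.636) and MTR (0.634), with PPARA at rank 18. PPARD was closest to HMOX1 (0.570), SF3B4 (0.558), SMPD1 (0.549), TNFRSF1A (0.536) and TMEM214 (0.535). The score of 20 PPAR partners and coregulators went with PPARA at r = 0.620 and with PPARGC1A at r = 0.613, and its r with PPARD was 0.00967 (adjusted p = 0.941, permutation). No gene among the 5 of a receptor or of PPARGC1A was among the 5 of a target.

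Of 23 genes tested from the PPAR-responsive list named after fatty acid oxidation, 18 rose with PDK4 and 0 fell, where 43.3% of all genes rose. PLIN2, which coats lipid droplets, led them (0.54 log2 units per SD of PDK4, the smallest p of all genes). SLC25A34, a mitochondrial carrier (0.48), and ETFDH, which feeds electrons from fatty acid oxidation to ubiquinone (0.21), followed, then HADHA, a trifunctional protein subunit (0.16). The median slope of the list was 0.16 against 0.04 over all genes, and with libraries shifted to a common median 15 of the 23 rose and 1 fell, with a median of 0.09 against -0.02, where 15.6% of all genes rose and 23.6% fell. The score of this list, the mean of its z-scored genes, went with ANGPTL4 at r = 0.662, PDK4 at 0.585, CPT1B at 0.512 and MLYCD at 0.449 (adjusted p = 4.27e-05 each, permutation, over 128 pairs of a member and a list). At a common median r was 0.647 with ANGPTL4, 0.430 with PDK4, 0.354 with CPT1B and 0.454 with MLYCD. As deposited, the r of this score with PPARA was 0.0799 (adjusted p = 0.370 by permutation) and with PPARD 0.0457 (adjusted p = 0.637).

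Of 16 genes of muscle wasting under FOXO factors, 12 rose with PDK4 and 0 fell, beside the 43.3% of all genes that rose. They were led by TXNIP (0.53), FBXO32, the ubiquitin ligase atrogin-1 (0.44), MAP1LC3B, an autophagosome protein (0.13), and SESN1, a sestrin (0.28), and 10 of 16 rose and 1 fell with libraries at a common median, beside 15.6% of all genes rising. Of 13 glucocorticoid-responsive genes, 10 rose, led by CEBPD (0.56), KLF9 (0.42), ZBTB16 (0.37) and GLUL, glutamine synthetase (0.38), and 1, the kinase gene SGK1, fell by 0.19. The median slope of this list was 0.31, and 0.26 at a common median, where 9 rose. UCP3 had its highest r with this list (0.596), above its r with the fatty acid oxidation list (0.175), whereas the order was the other way round for ANGPTL4 (0.236 and 0.662). The differences between these correlations were not tested.

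The counts of the next 4 lists stand beside 43.3% of all genes rising and 6.23% falling with PDK4. At a common median 15.6% rose and 23.6% fell. Nothing is read from counts near these shares. Of the 13 genes of the pyruvate dehydrogenase complex and its regulators 8 rose, led by PDHA1, the subunit that PDK4 phosphorylates (0.15), the pyruvate carrier MPC2 (0.13), PDPR (0.11) and PDK1 (0.12), and 1, the other pyruvate carrier MPC1, fell by 0.11. At a common median 4 rose and 2 fell. Of 10 genes around malonyl-CoA and AMPK 5 rose, led by ACACB, which makes the malonyl-CoA that inhibits CPT1B (0.23), and the AMPK subunits PRKAA1 (0.16), PRKAA2 (0.16) and PRKAB1 (0.04), but at a common median 2 rose and 3 fell. Of 20 PPAR partners and coregulators 11 rose, led by LPIN1 (0.29), SIRT1 (0.14) and TFAM (0.24), and the receptor RXRG fell by 0.17, and at a common median 4 rose and 5 fell. Of 10 hypoxia genes 7 rose, led by BNIP3L (0.18), NDRG1 (0.13), ANKRD37 (0.10) and ADM (0.13), and 2 at a common median.

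Markers of muscle fibres and other cells were set beside these. Fast-fibre genes, led by CASQ1 (-0.21), ACTN3 (-0.09), TNNT3 (-0.10) and MYLPF (-0.14), fell with PDK4 in 9 of 11 tested, where 6.23% of all genes fell. At a common median 9 also fell, beside 23.6% of all genes. After quantile normalization 5 fell and 1 rose, beside 21.2% of all genes falling. The fast-fibre score went with PDK4 at r = -0.407 (rho = -0.364, adjusted p = 4.27e-05 by permutation) and with CPT1B at r = -0.435 (rho = -0.510). At a common median r was -0.378 with PDK4 and -0.236 with CPT1B. The summed FPKM of fast-fibre genes ran from 29664 to 76702 over the libraries. A fall of such abundant genes leaves more of a library to all others, and its part in the slopes on PDK4 was not tested beyond the shift to a common median. Of 9 slow-fibre genes 1 rose, MYOZ2 (0.20), and 1 fell, MYL3 (-0.16).

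Of 12 adipocyte markers 3 rose with PDK4, LIPE (0.36), FABP4 (0.26) and ADIPOQ (0.18), a smaller share than the 43.3% of all genes, and the score of the list had an r of 0.137 with PDK4 (adjusted p = 0.101, permutation). The r of this score was 0.261 with ANGPTL4 (adjusted p = 8e-04), a gene that adipocytes also express, and -0.222 with CPT1B (adjusted p = 0.00549). Without the 2 libraries farthest from the median of ANGPTL4 or of CPT1B, these were 0.193 and -0.228. The summed FPKM of the adipocyte markers ran from 62.5 to 3588, with library 39 at the top. Without that library the r of PDK4 with ANGPTL4 was 0.768. CPT1B also went against the collagen and fibroblast score (r = -0.350) and the macrophage score (r = -0.375, adjusted p = 4.27e-05 each, permutation), and the part of these cells in its level was not tested. Of the other markers, 2 of 8 endothelial genes (VWF and EGFL7), 1 of 7 macrophage genes (MRC1) and 4 of 8 immediate early genes (NR4A3, JUN, EGR1 and ATF3) rose with PDK4, shares near or under that of all genes, 2 of 10 collagen and fibroblast genes (SPARC and COL1A1) fell, and 0 of 2 red blood cell and 0 of 2 liver genes passed. At a common median 0 endothelial and 1 immediate early gene rose, and 6 collagen and fibroblast genes fell. Of all genes 6.23% fell as deposited, and 15.6% rose and 23.6% fell at a common median.

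**Figure D5:**
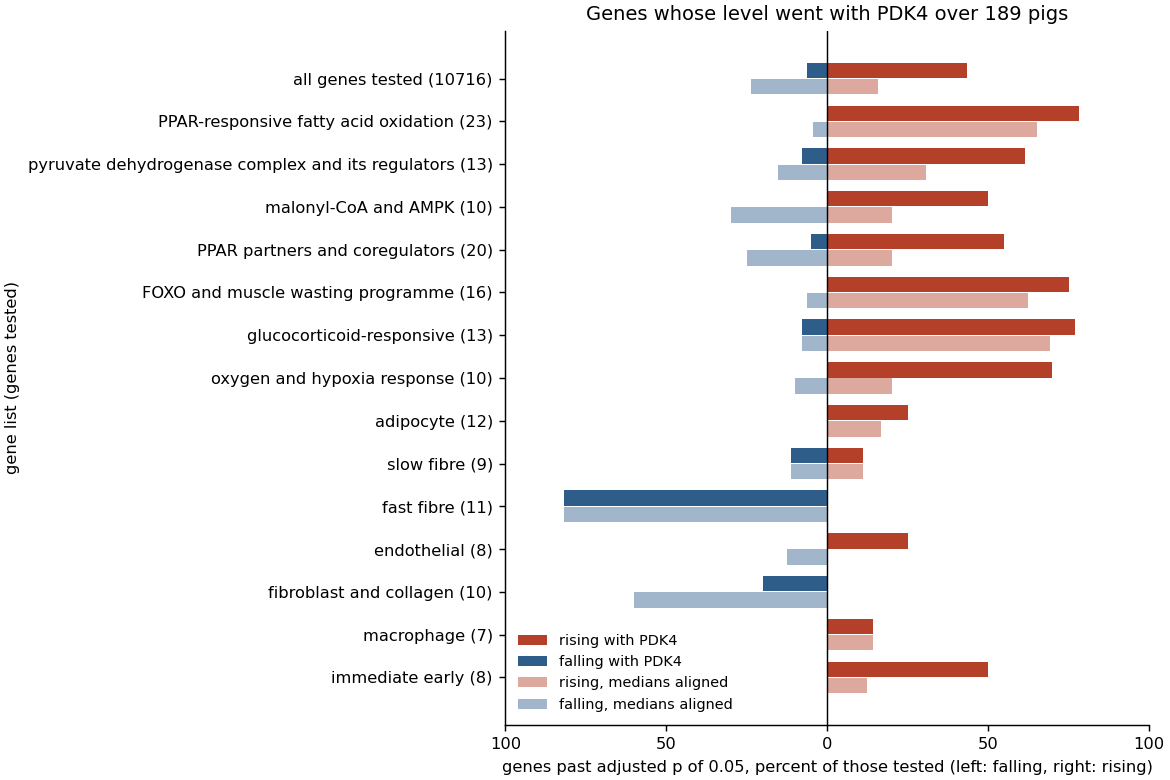
Share of the tested genes of each list that rose (right) or fell (left) with PDK4 at an adjusted p under 0.05, in percent, with the number tested in brackets. Dark bars are the values as deposited and pale bars those with libraries shifted to a common median, where the lists of fatty acid oxidation (15 of 23), FOXO (10 of 16) and glucocorticoid response (9 of 13) kept the larger shares that rose.

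Each title holds a code, whose meaning is not stated. Among the 172 pigs that share their first 6 digits with another pig (34 values), 0 of 8 genes differed between values after adjustment, against 0.205% of all genes (22, or 4 without library 39, limma, moderated F test). Unadjusted p-values were under 0.05 for CPT1B (0.00936), ANGPTL4 (0.0189), MLYCD (0.0289) and PDK4 (0.0419), and over 0.12 for the other 4. Among the 146 pigs that share 9 digits (48 codes), CPT1B differed between codes (F = 2.36, adjusted p = 0.0259), 1 of 8 genes against 1.82% of all genes. The share of its variance between codes, taken without the mark as a covariate, unlike the F test, was 0.311, against a median of 0.0557 over all genes. In unmarked libraries alone it was 0.253, against a median of 0.0388. That call was lost in unmarked libraries alone (adjusted p = 0.131) and within the first 6 digits (adjusted p = 0.0990).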

How the data were processed

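The authors deposited 1 table with a value per annotated transcript and library. Its header names no unit, and the deposited values were taken as FPKM from its column layout. HISAT2 2.0.5, StringTie 1.3.3 and Sscrofa11.1 are named in the submitters' processing notes. Which annotation release, filter or scaling the authors applied is not given in the sources used here, and no listed transcript is at 0 in over 9.52% of libraries. The table holds no read counts, so depth is unknown and errors are the spread between pigs. FPKM of 18114 transcripts were summed per gene, and the 10717 of 12651 genes whose mean reached 0.5 FPKM were tested.

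Tests used limma 3.58.1 in R 4.3.3 on log2(FPKM + 1) (lmFit, eBayes with a mean trend, 2-sided, Benjamini-Hochberg over all genes, called under 0.05), which understates changes of low genes. The fits were tested on simulated data. Correlations used 100000 permutations (numpy 2.4.6, Python 3.11.15), with Benjamini-Hochberg over 28 gene pairs or 128 gene and list pairs. Alternatives changed the pseudocount, the filter, the scaling, the transcripts summed, the covariates and the libraries. Named genes were the 8 members, the 5 genes with a symbol of highest r to each, and up to 4 genes of smallest p per list. Further named list genes were chosen after their values were seen. The members and lists were chosen with earlier results of these data known. Which pigs share a parent is not stated, and p-values treat pigs as independent. No sequences are shown.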

Additional observations from a re-analysis of the deposited data

Results flagged for a closer look

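PDK4 in the re-analyzed pigs of high IMF had 1 value far from the other 9, 338 FPKM in library 148. The gap to the next value, relative to the range of the group, exceeded the 95% critical value of Dixon's test. All 8 genes were examined in this group, the only one of 4 to 10 libraries. Chance marks about 1 in 20 where values follow a normal curve. PDK4 in FPKM is skewed in this group (mean 66.2, median 23.4), so the rate here is not known.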

How the results depend on the processing

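No member passed for IMF, for the difference of slopes between sets, for high against low IMF or for the first 6 title digits under any alternative run, and the members' count for the mark (2 to 3) and for PDK4 (4 to 6) stayed within 1.5 times. The filter of a mean of at least 5 FPKM left PPARA and PPARGC1A (means of 2.89 and 1.68 FPKM) untested. No member that was tested lost its call on PDK4. Small IMF slopes turned sign: PPARA to 0.016 (pseudocount 0.1), 0.010 (without the 2 lowest and 2 highest IMF values), 0.0019 (4 title digits) and 0.023 (6 digits), CPT1B to -0.0088 (common median), -0.010 (quantile normalization) and -0.00038 (6 digits), and ANGPTL4 to -0.040 (adipocyte score). Leaving out 1 re-analyzed library, the high minus low difference ran from -0.22 to 0.55 for PDK4, -0.21 to 0.11 for ANGPTL4, -0.18 to 0.044 for CPT1B and -0.025 to 0.26 for MLYCD. The slope on PDK4 turned to -0.0098 and -0.0078 for PPARA and to -0.044 and -0.045 for PPARD (common median, quantile normalization), and passed for PPARA with 6 digits as a factor (0.10, adjusted p = 0.0459). At a common median, r with a list score turned for ANGPTL4 (partners, -0.0175) and CPT1B (malonyl-CoA and AMPK -0.0976, partners -0.0649, hypoxia -0.0172). The members' count for 9 digits was 0 in unmarked libraries alone and 0 within 6 digits. Of the 28 pairs, 15 (unmarked libraries) to 19 (6 digits removed) passed, and of the 128 with lists 52 to 65. The unmarked-only correlations and those without library 39 were chosen after seeing the data. The causes were not tested.

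Calls over all genes moved more. For IMF they were 19 (pseudocount 0.1), 5 (mean of at least 5 FPKM), 28 (without library 39), 193 (adipocyte score), 0 (unmarked) and 0 (6 digits) against 9. For high against low IMF they were 4 to 10 under other settings and 0 to 17 without 1 library, against 9. For 6 digits they were 1 to 60, and 250 for 4 digits, against 22, and for 9 digits 45 to 206 against 195. Quantile normalization gave 2077 genes rising and 2269 falling with PDK4. No paired analysis was possible because the numbers only name libraries, 1 per pig. Read depth is unknown, so it cannot be said how far counting noise widens the spread of low genes such as PPARA and PPARGC1A.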
